A study of Mus musculus with 2 samples.

Results

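Immunoglobulin constant region genes carry the isotype of an antibody. The 10 genes described here were Ighm, Ighd, Ighg1, Ighg2b, Ighg2c, Ighg3, Igha, Igkc, Iglc2 and Jchain. They were taken by name from the 31053 genes of 2 single-nucleus RNA-seq libraries, and all 10 were found in both. The question was whether the B cells of the fat depot carried the unswitched isotypes of naive cells or had switched class.

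The libraries were made from nuclei of inguinal white adipose tissue (iWAT) of male mice fed Western diet for 4 weeks. Tissue of 3 mice was pooled per library, so there was 1 library per genotype and no replicate check. By its label and the methods, the library called WT is of Lexis-AdWT mice, which carry the floxed Lexis allele on both chromosomes (Lexis fl/fl) without Cre. The library called KO is in the same way of Lexis-AdKO mice, which carry the same floxed alleles with Adipoq-cre, a Cre driven by the adiponectin promoter that acts in adipocytes. The methods put all mice on a C57BL/6 background, and they give an age range for most experiments but none for these mice. The deposited file of each library carried the name of the opposite genotype, and Lexis itself could not be checked in these matrices, so the libraries are called labelled WT and labelled KO throughout.

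A B cell assembles a heavy chain and a kappa or lambda light chain. Naive B cells make IgM and IgD from the same rearranged gene by splicing to Ighm or Ighd. After activation, class switch recombination replaces these with an IgG, IgE or IgA constant region and deletes the segments between. Ighd lies next to Ighm and is lost with it. Plasma cells then secrete antibody in large amounts, and Jchain joins the units of IgM and IgA polymers. In fat tissue, B cells are found in immune clusters and in the lymph node embedded in the inguinal depot.

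In the mm10 gene models of RefSeq (GRCm38.p6), the heavy chain genes lay in the order Ighm (chr12:113418826-113422730), Ighd (chr12:113407535-113416324), Ighg3 (chr12:113357442-113361232), Ighg1 (chr12:113326541-113330523), Ighg2b (chr12:113304314-113307933), Ighg2c (chr12:113287389-113288932) and Igha (chr12:113256204-113260236). The kappa gene Igkc was at chr6:70726435-70726754, the lambda gene Iglc2 at chr16:19198536-19198852 and Jchain at chr5:88519809-88527897. All but Jchain are annotated as C regions, the constant segment that is spliced to a variable region. Counts were given per gene, so the membrane and secreted forms of Ighm could not be told apart. They also do not show whether a constant region was joined to a variable region. A switched isotype below thus names the gene counted, and recombination in a nucleus was not tested.

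The constant genes resemble each other, and counting can split reads between near-identical copies. Iglc2 and Iglc3 shared 304 of 315 coding bases (96.5%), with a longest identical run of 79 bases, in transcripts of an older gene set (build NCBIM37). The last 90 coding bases, as long as the sequenced read, are shown because they differ at 1 base, which is in capitals.

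Iglc2: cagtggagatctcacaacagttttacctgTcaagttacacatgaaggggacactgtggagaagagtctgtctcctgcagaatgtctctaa

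Iglc3: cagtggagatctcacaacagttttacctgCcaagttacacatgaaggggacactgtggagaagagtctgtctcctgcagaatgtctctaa

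Reads from this stretch of the 2 genes can be told apart by that base alone, so the values of Iglc2 and Iglc3 are uncertain against each other. Among the heavy chains, Ighg2b and Ighg2c were 73.4% identical with a longest run of 78 bases, Ighg1 and Ighg2b were 75.8% identical with a run of 37, and Ighm and Ighg1 were 50.8% identical with a run of 10. No window of 90 bases was shared by any pair compared.

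Each library held 5000 barcodes, with 9376351 UMIs (molecules counted by their unique molecular identifiers) labelled WT and 19655049 labelled KO. After the filters, 3503 nuclei with a median of 1194 UMIs remained in the former and 2852 with a median of 3876.5 UMIs in the latter. The libraries shared 12 barcodes. Nuclei were clustered without immunoglobulin genes, so that class membership did not use the members. The B-like cluster held 1197 of 3503 nuclei labelled WT (34.2%, exact 95% interval 32.6–35.8) and 34 of 2852 labelled KO (1.19%, 0.827–1.66). It passed 14 of 14 B cell markers in both. Cd79a, the signalling partner of the B cell receptor, was seen in 72.7% of B-like and 25.7% of T/NK-like nuclei labelled WT. All intervals here are exact and cover counting error only, not the spread between mice.

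The methods state that the lymph node was left out of the tissue. Markers of lymph node stroma and vessels (10 genes, all seen in both libraries) summed to 541 CPM (counts of a gene scaled to a fixed total of UMIs; 524–559) labelled WT and 60.2 CPM (56.4–64.2) labelled KO. Ccl21a and Ccl19, chemokines of the T cell zone, had 1524 and 148 UMIs against 65 and 1, and the follicle chemokine Cxcl13 had 508 against 235. Pdpn of the same list ran the other way, with 72 UMIs against 488, the latter more than the other 9 genes of the list together labelled KO. A cluster of 118 nuclei led by Csmd1, Ccl21a and Cxcl13 was found in the library labelled WT and was left unnamed. The number of B-like nuclei and the sum of these markers were thus both higher labelled WT, and their part in the results below was not tested.

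In the library labelled WT, B-like nuclei carried mostly IgM and IgD. Of 1197 nuclei, 1125 (94.0%, 92.5–95.3) had UMIs of Ighm or Ighd and of no switched isotype. Another 44 (3.68%) had both kinds, 6 (0.501%, 0.184–1.09) had a switched isotype alone, and 22 (1.84%) had no heavy chain UMI. By UMIs, 109 of 7283 heavy chain UMIs (1.50%, 1.23–1.80) came from switched isotypes, counting Ighg1, Ighg2b, Ighg2c, Ighg3, Igha and Ighe. Requiring at least 1000 genes per nucleus and clustering anew gave 111 B-like nuclei, only 82 of them in the main B-like class. In these 111, the share of heavy chain UMIs from switched isotypes was 4.25% (3.27–5.41). Nuclei with both Ighm and Ighd numbered 927 (77.4%, 75.0–79.8), with Ighm alone of the pair 193 (16.1%), and with Ighd alone 49 (4.09%). The share with both was 50.9% when each nucleus was thinned to 500 UMIs and 90.1% in the 111 nuclei clustered anew with at least 1000 genes.

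Ighm, the constant region of IgM, gave 4547 UMIs in 1120 B-like nuclei (93.6%) and 3568 CPM. Ighd, the constant region of IgD, gave 2627 UMIs in 976 nuclei (81.5%) and 2061 CPM. In T/NK-like nuclei of the same library, which should lack these transcripts, Ighm had 1091 UMIs in 367 of 764 nuclei (48.0%) and 1066 CPM, and Ighd had 420 UMIs in 217 nuclei (28.4%) and 410 CPM. The median depths were 961 UMIs for B-like and 1074 for T/NK-like nuclei, so the B-like class was the shallower. After every nucleus was thinned to 500 UMIs, Ighm was seen in 79.7% of B-like and 29.8% of T/NK-like nuclei, and Ighd in 60.9% and 13.7%. Both genes thus stood above the level in the class that should lack them, while that level was far from 0.

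The switched isotypes were rare and mostly IgG. Ighg2b had 39 UMIs in 19 B-like nuclei (27.7–53.3 UMIs) and Ighg1 had 33 in 15 (22.7–46.3), 2 counts that did not differ beyond counting error. Ighg2c, which C57BL/6 mice carry in place of Ighg2a, had 17 UMIs in 4 nuclei, but 14 of them were in a single nucleus. Ighg3 had 14 UMIs in 8 nuclei (7.65–23.5). Igha, the constant region of mucosal IgA, had 5 UMIs in 5 nuclei (1.62–11.7), and Ighe, that of IgE, had 1 UMI. Nuclei with any of the 4 IgG genes numbered 44 (3.68%).

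Any switched isotype was seen in 50 B-like nuclei (4.18%, 3.12–5.47) and in 4 of 764 T/NK-like nuclei (0.524%, 0.143–1.34). Thinned to 500 UMIs, these shares were 2.59% (1.77–3.66) and 0.262%. In the 111 B-like nuclei clustered anew with at least 1000 genes, not all of them in the main class, the share was 10.8% (5.71–18.1). T/NK-like nuclei had 4 Ighg2b and 3 Ighg2c UMIs and none of Ighg1, Ighg3 or Igha. Against the 3 counts that a count of 0 allows, Ighg1 was at least 8.84-fold higher in B-like nuclei in CPM, and Ighg3 at least 3.75-fold. With the counting error of the B-like sums included, the exact lower limits were 6.79 and 2.66. For Ighg2c the share of 0.334% lay beside 0.262% in T/NK-like nuclei, while its CPM, mostly from the nucleus with 14 UMIs, was 4.55 times theirs (1.32–24.2). Igha, at 0.418% of B-like nuclei, was hardly above the 0.393% that 0 of 764 allows.

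**Figure D1:**
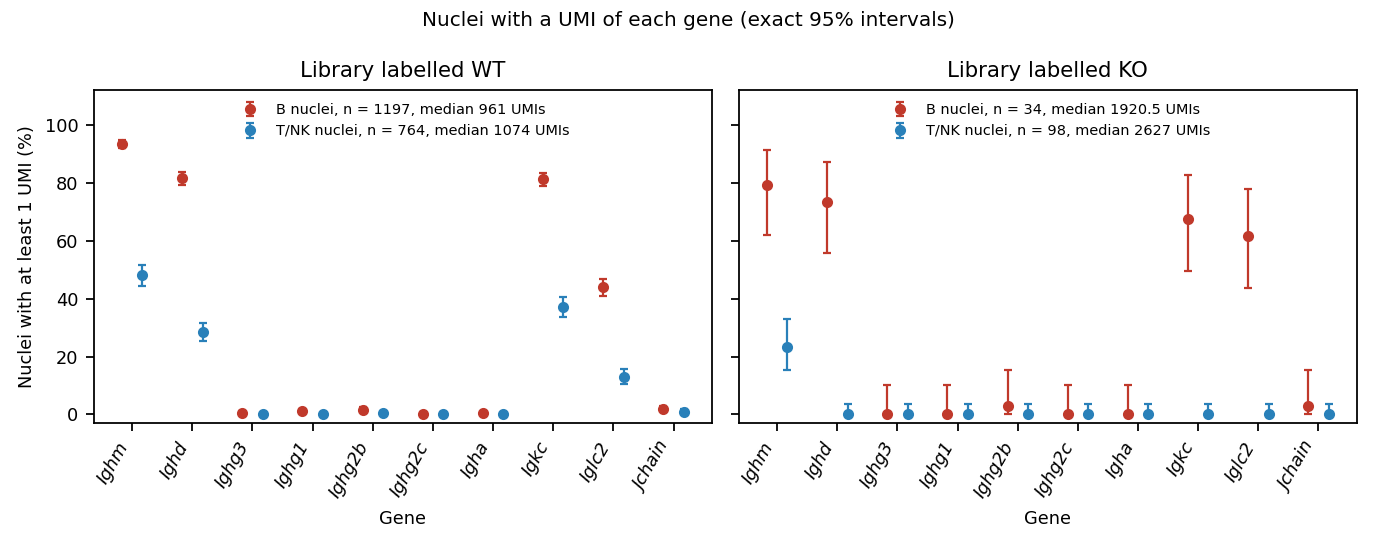
Percent of B-like and T/NK-like nuclei with at least 1 UMI of each gene in each library, with exact 95% intervals that cover counting error only. In the library labelled WT, Ighm was seen in 93.6% of B-like and 48.0% of T/NK-like nuclei, and any switched isotype in 4.18% and 0.524%.

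Most nuclei with a switched isotype also held Ighm or Ighd UMIs, 44 of the 50. In T/NK-like nuclei, 56.4% held Ighm or Ighd and no switched isotype, so UMIs of these genes alone do not show that a nucleus transcribed them. In the B-like class, 9 nuclei held more switched than unswitched UMIs. At least 2 switched UMIs were found in 19 nuclei (1.59%). The nucleus with most of them had 14 Ighg2c UMIs beside 6 Ighm, 8 Ighd and 33 Igkc UMIs. The next had 7 Ighg1 UMIs beside 11 Ighm UMIs, and the third had 6 Ighg2b UMIs and no other heavy chain. In 2 nuclei, 2 switched isotypes were seen together, Ighg1 with Ighg2b in each. A B cell is expected to carry a single productive heavy chain. Of the T/NK-like nuclei, 2 also held at least 2 switched UMIs, and the part of RNA from other cells in a given nucleus was not tested.

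**Figure D2:**
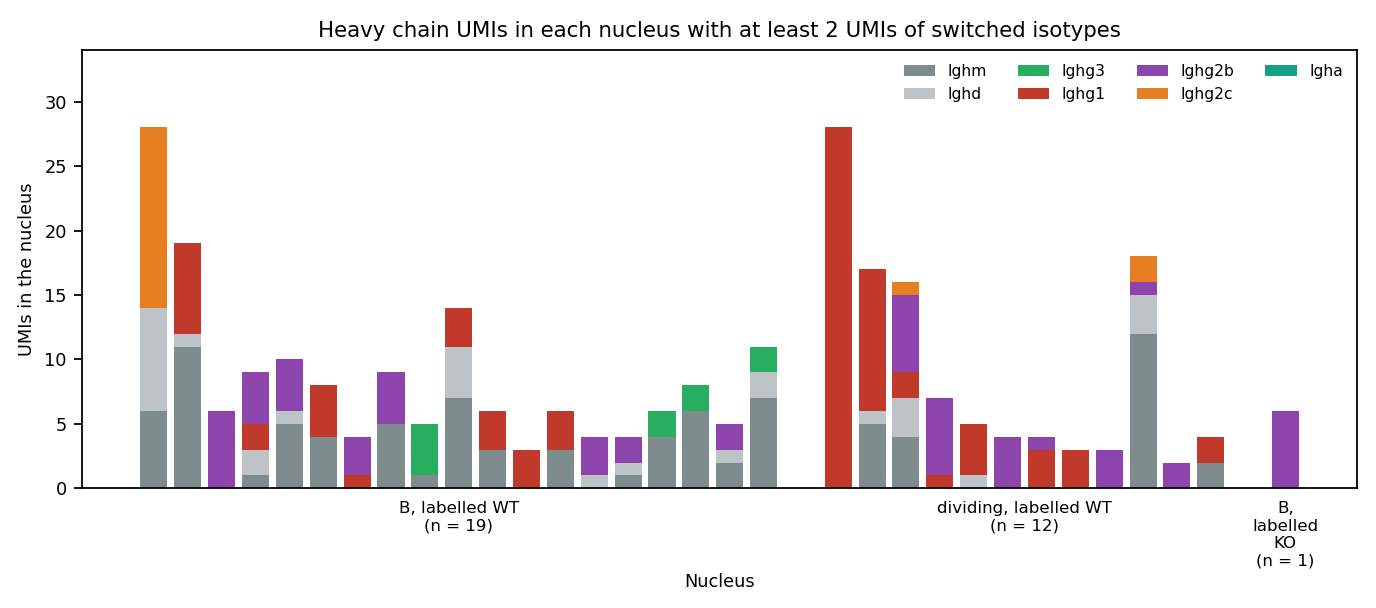
Heavy chain UMIs in each nucleus that held at least 2 UMIs of switched isotypes, 1 bar per nucleus, coloured by gene, for B-like nuclei labelled WT (19), dividing nuclei labelled WT (12) and B-like nuclei labelled KO (1), with the T/NK-like nuclei not drawn. Grey Ighm and Ighd UMIs are present in most of the B-like bars and are absent from many of the dividing bars.

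Other genes were compared between B-like nuclei with a switched isotype and those without. The proliferation gene Mki67 was seen in 14.0% of the 50 nuclei, against 2.45% of the 898 nuclei with both Ighm and Ighd and no switched UMI, and Nt5e, which encodes the memory marker CD73, in 10.0% against 0.891%. Fcer2a, which encodes CD23 of follicular B cells, was seen in 40.0% (26.4–54.8) against 55.6% (52.2–58.9), with intervals that overlap. Other genes of the same lists were at like shares, with 10 of 50 nuclei against 20.9% for the memory gene Zeb2, 26.0% against 25.9% for the naive gene Klf2 and 24.0% against 21.6% for Bach2. Median depths were 1145 and 978.5 UMIs. In the 19 nuclei with at least 2 switched UMIs, Fcer2a was seen in 3 (15.8%), Nt5e in 4 (21.1%), and Bach2 and Zeb2 in 6 each (31.6%). Of the plasma cell genes, Mzb1 was seen in 18.0% against 7.91% and Xbp1 in 10.0% against 9.47%. Prdm1, Sdc1 and Irf4 had 0 UMIs in the 50 nuclei, but Prdm1 had only 1 UMI and Sdc1 only 8 in the whole class. These are nuclei of 1 library, so the shares describe it and were not tested.

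UMIs of switched isotypes were most frequent in a small cluster of dividing nuclei in the library labelled WT. This cluster of 80 nuclei passed all 4 markers of division and 6 B cell markers. It held 87 switched of 342 heavy chain UMIs (25.4%, 20.9–30.4), against 1.50% in B-like nuclei. Any switched isotype was seen in 19 of 80 nuclei (23.8%, 14.9–34.6), and 9 of them had no Ighm or Ighd UMI. Of the 51 dividing nuclei with UMIs of at least 2 B cell markers, 18 held a switched isotype (35.3%, 22.4–49.9), and of the other 29, 1 did. In these 51, 30 held Ighm or Ighd alone, 9 both kinds, 9 a switched isotype alone and 3 no heavy chain UMI.

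In the dividing cluster, Ighg1 had 56 UMIs in 10 nuclei and a CPM 16.1 times that of B-like nuclei (10.3–25.6), with 28 of these UMIs in a single nucleus. Ighg2b had 26 UMIs in 10 nuclei, 6.34 times the CPM of B-like nuclei (3.71–10.7). Ighg2c had 4 UMIs, Ighg3 had 1 and Igha had 0. Jchain had 18 UMIs in 11 nuclei, a ratio of 5.71 (3.00–10.6). The unswitched and light chain members went the other way, with ratios of 0.408 for Ighm, 0.217 for Ighd and 0.262 for Iglc2. Some genes of the germinal centre, the site of B cell selection, were also higher there than in B-like nuclei, but on few UMIs. S1pr2 had 12 UMIs against 7 (a ratio of 16.3, 5.92–48.9), Gcsam 11 against 6 (17.4, 5.91–57.4) and Fas 15 against 32 (4.46, 2.24–8.47). Bcl6, their regulator, had a ratio of 1.70 whose interval (0.952–2.87) includes 1. Of the 10 germinal centre and switching genes, 3 reached 50 UMIs over both classes, and 2 of them were at least 2-fold higher. These 2, Mki67 and Top2a, are among the 4 markers of division that named the cluster. Their ratios thus follow from the naming and say nothing about the germinal centre. Over all genes, 360 of 5191 (6.94%) were at least 2-fold higher. B cell genes of several lists were lower. All ratios here are of sums over the 80 nuclei of the cluster, 29 of which lacked UMIs of at least 2 B cell markers. The part of these 29 in the lower values was not tested. Of 10 naive or follicular genes, 5 were at most 0.5 of the B-like level, such as Fcer2a (0.248) and Cr2 (0.444), while Tnfrsf13c had 0.597 and Bach2 0.760 (0.484–1.14). Of 8 parts of the B cell receptor, 3 were, Cd79a (0.354), Cd79b (0.438) and the kinase gene Btk (0.294). Over all genes, 570 of 5191 (11%) were. Fcmr, which encodes the IgM receptor, had 0.103. The cluster was formed from 2000 variable genes, without the immunoglobulin genes. Genes of these latter lists may be among the 2000, so their ratios only describe the cluster.

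The light chains were mixed within nuclei. Igkc had 2724 UMIs in 972 B-like nuclei labelled WT (81.2%; 2137 CPM) and Iglc2 had 908 in 525 (43.9%; 712 CPM). The other lambda genes, Iglc1 and Iglc3, had 484 and 1083 UMIs. Igkc alone was seen in 236 nuclei (19.7%), a lambda gene alone in 162 (13.5%), both in 736 (61.5%) and neither in 63 (5.26%). A B cell as a rule keeps either kappa or lambda. Of 453 nuclei with at least 5 light chain UMIs, 81 (17.9%) had at least 80% of them from Igkc, 87 (19.2%) had at least 80% from lambda genes, and 285 (62.9%) lay between. Lambda genes gave 2475 of 5199 light chain UMIs (47.6%) in B-like nuclei and 66 of 207 (31.9%, 25.6–38.7) in the dividing cluster. In T/NK-like nuclei they gave 37.5%, and 33 of 51 nuclei with at least 5 light chain UMIs (64.7%, 50.1–77.6) lay between, a share whose interval includes that of B-like nuclei.

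Variable segments had few UMIs. The Ighv segments summed to 201 UMIs in 174 B-like nuclei labelled WT, Igkv to 140 in 125 and Iglv to 46 in 43.

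The comparison of Jchain turned on a single barcode. It had 30 UMIs in 23 nuclei (1.92%, 1.22–2.87), at most 2 in any nucleus, and 27 UMIs in 7 T/NK-like nuclei, 21 of them in a single nucleus. The CPM ratio of B-like to T/NK-like nuclei was 0.892 (0.513–1.56), but without that nucleus 6 Jchain UMIs were left in the T/NK-like class, at 5.88 CPM against 23.5 CPM in B-like nuclei. Thinned to 500 UMIs, Jchain was seen in 1.25% (0.703–2.06) of B-like and 0.262% (0.0317–0.942) of T/NK-like nuclei.

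Most other members stood higher in B-like than in T/NK-like nuclei in CPM. Beside the IgG genes above, the ratio was 3.35 (3.13–3.58) for Ighm, 5.02 (4.53–5.58) for Ighd, 3.30 (3.03–3.60) for Igkc, 5.17 (4.33–6.22) for Iglc2 and 7.83 (2.83–30.2) for Ighg2b. Of the 10 members, 5 had the 50 UMIs over both classes required for a count, here and in the lists that follow, and 4 of these 5 were at least 2-fold higher. Among all genes with as many UMIs, 372 of 7008 were (5.31%).

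**Figure D3:**
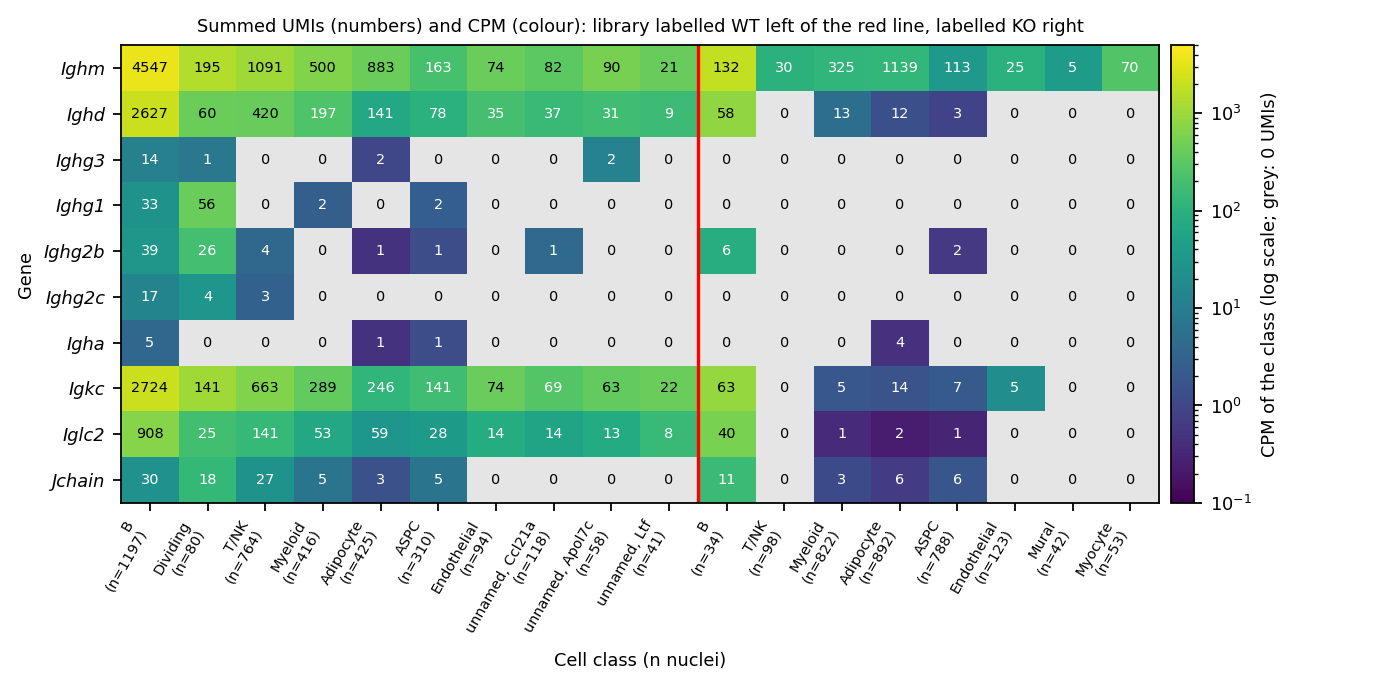
Heat map of each member by class of nuclei in each library, with CPM on a log colour scale and summed UMIs as numbers. The members are highest in B-like nuclei for Ighm, Ighd, Igkc and Iglc2, and in the dividing cluster labelled WT for Ighg1, Ighg2b and Jchain among the classes labelled WT. Ighg2c was also highest in that cluster among these classes, but on 4 UMIs.

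Other B cell genes of the library labelled WT were described by list. Unlike the members, these genes were not kept out of clustering, which used 2000 variable genes and may have included them. Of the parts of the B cell receptor, such as Cd79a and Cd79b, 8 of 8 were at least 2-fold higher in B-like than in T/NK-like nuclei, with a median log2 ratio of 2.13 against −0.06 over all genes. Of 10 naive or follicular genes, 4 were, with a median of 0.66. These were Fcer2a (4.84), Cr2 (4.94), the follicle homing receptor Cxcr5 (3.58) and the BAFF receptor gene Tnfrsf13c (6.52). Genes that naive T cells also use had lower ratios, 0.820 for Klf2 and 0.506 for Ccr7.

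Genes of later B cell states were sparse. Of 10 germinal centre and switching genes, all were seen, 4 reached 50 UMIs and 0 were 2-fold higher. Bcl6 had 95 UMIs, S1pr2 had 7, Gcsam 6, Rgs13 4 and Mef2b 3. Of 6 memory genes, 2 reached 50 UMIs. Zeb2 was higher (2.00) and Nt5e lower (0.301), and Cd80 and Pdcd1lg2 had 8 and 14 UMIs. Of 8 B-1 and marginal zone genes, 3 reached 50 UMIs and 2 were at most 0.5 of the T/NK-like level, Cd5 (0.103) and Spn (0.151), both of which T cells express. Over all genes, 473 of 7008 (6.75%) were at most 0.5. Bhlhe41, a regulator of B-1 cells, had 18 UMIs. Of 11 plasma cell genes, 5 reached 50 UMIs and 3 were higher, Mzb1 (4.57), Pou2af1 (4.18) and Txndc5 (2.15). The plasma cell regulator Prdm1 had 1 UMI and Sdc1, which encodes CD138, had 8. Of 5 immunoglobulin receptors and transporters, 4 reached 50 UMIs and 2 were higher, Fcmr (5.32) and the inhibitory IgG receptor gene Fcgr2b (4.05).

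In the library labelled KO, the 34 B-like nuclei were also mostly unswitched. Ighm or Ighd without a switched isotype was seen in 30 (88.2%, 72.5–96.7), a switched isotype alone in 1 (2.94%, 0.0744–15.3) and no heavy chain UMI in 3. Ighm had 132 UMIs in 27 nuclei and Ighd had 58 in 25. Both were seen together in 22 nuclei (64.7%, 46.5–80.3), and in 20.6% (8.70–37.9) when thinned to 500 UMIs. The only switched transcripts were 6 Ighg2b UMIs, all in 1 nucleus that had no Ighm or Ighd. They made up 6 of 196 heavy chain UMIs (3.06%, 1.13–6.54). Ighg1, Ighg2c, Ighg3 and Igha had 0 UMIs, which allows up to 8.82% of nuclei and up to 43.0 CPM each. The 25.9 CPM of Ighg1 labelled WT lies under that limit, so a difference was not detectable at this depth.

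T/NK-like nuclei labelled KO held less immunoglobulin RNA. Of 98 nuclei with a median of 2627 UMIs, 23 had Ighm (30 UMIs; 104 CPM), and the other 9 members had 0 UMIs. B-like nuclei there had a median of 1920.5 UMIs and were free of the T cell markers Cd3e, Cd3d, Cd3g and Bcl11b (0 UMIs each), while Cd3e was seen in 4.76% of B-like nuclei labelled WT.

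The levels of Ighm, Ighd and Igkc in B-like nuclei were lower in the library labelled KO. Ighm was at 1891 CPM against 3568, a ratio of 0.530 (0.442–0.630). Ighd had a ratio of 0.403 (0.305–0.523) and Igkc of 0.422 (0.324–0.542). Iglc2 had a ratio of 0.804 whose interval includes 1 (0.571–1.10), and its near copy Iglc3 had 0.405 (0.258–0.605). As the 2 are uncertain against each other, their sum was also taken, with a ratio of 0.587 (0.450–0.753). Among all genes with at least 50 UMIs, 1224 of 4980 (24.6%) were at most 0.5 of the level labelled WT and 782 (15.7%) were at least 2-fold higher, so ratios of this size were common. The ratios also varied with gene length. Genes of up to 10000 bases, as all members are, had a median ratio of 0.761 (n = 996), and those over 100000 bases had 2.03 (n = 657). Relative to genes of up to 10000 bases, the ratios were 0.697 (0.582–0.828) for Ighm, 0.530 (0.401–0.687) for Ighd, 0.555 (0.425–0.712) for Igkc, 1.06 for Iglc2, and 0.771 for Iglc2 and Iglc3 summed. Thinned to 500 UMIs, Ighm was seen in 47.1% (29.8–64.9) of nuclei labelled KO against 79.7% labelled WT, and Igkc in 26.5% (12.9–44.4) against 60.1%. For Ighd the shares of 44.1% (27.2–62.1) and 60.9% (58.1–63.7) overlapped in their intervals. A switched isotype was seen in 2.94% against 2.59%.

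The sums labelled KO leaned on a single nucleus. It held 38 Ighm, 153 Iglc1, 10 Igkc and 11 Jchain UMIs and 0 of Ighd, and 213 of its 3682 UMIs (5.78%) were of immunoglobulin constant genes or Jchain. It was singled out after its values were seen. It had UMIs of 6 of 10 plasma cell markers (Sdc1, Xbp1, Prdm1, Irf4, Derl3 and Txndc5) and of 1 of 14 B cell markers, and 0 T/NK markers. With it, Iglc1 was at 6.37 times the level labelled WT (5.32–7.61), and without it at 0.637 (0.361–1.05). Jchain had 11 UMIs with it and 0 without. Without it the Ighm ratio was 0.398 (0.321–0.489), and lambda genes gave 79 of 132 light chain UMIs (59.8%, 51.0–68.3), against 233 of 296 (78.7%) with it.

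A barcode in the T/NK-like class labelled WT held the most immunoglobulin of that library. It held 81 Ighm, 80 Igkc and 21 Jchain UMIs and 0 of Ighd, with UMIs of 4 plasma cell markers (Sdc1, Xbp1, Derl3 and Txndc5), 7 T/NK markers and 4 B cell markers. Constant genes and Jchain gave 186 of its 3267 UMIs (5.69%). A barcode labelled KO with 79 Ighm, 63 Igkc, 0 Ighd and 0 Jchain UMIs, 8 plasma cell markers and 4 B cell markers was left out by the filter at 6.21% mitochondrial UMIs. In all 3, the heavy chain was Ighm and no switched isotype was seen. In no nucleus did constant genes and Jchain reach 10.0% of the UMIs.

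Ighm was also found outside the B-like nuclei, and there the libraries differed in its partners. In the library labelled WT, 3099 Ighm, 1008 Ighd and 1708 Igkc UMIs lay in other classes, which is 1.81 Ighm per Igkc UMI (1.71–1.93), beside 1.67 (1.59–1.75) in B-like nuclei. Per Ighd UMI the values were 3.07 (2.86–3.30) in other classes and 1.73 (1.65–1.82) in B-like nuclei, so Ighm was raised there against Ighd. T/NK-like nuclei gave 1.65 (1.49–1.82) per Igkc UMI, 1.73 (1.56–1.92) without the barcode rich in Jchain, and 2.60 (2.32–2.91) per Ighd UMI. In the library labelled KO, 1707 Ighm, 28 Ighd and 31 Igkc UMIs lay in other classes, which is 55.1 Ighm per Igkc UMI (38.6–81.3), while its B-like nuclei gave 2.10 (1.54–2.88).

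Adipocyte-like nuclei held most of this Ighm labelled KO, where 1139 of the 1707 UMIs were theirs. Labelled KO, 366 of 892 (41.0%, 37.8–44.3) held Ighm, against 12 UMIs of Ighd and 14 of Igkc, and 354 of the 366 had neither partner. The ratio of Ighm to Igkc was 81.4 (48.3–149), the highest nucleus had 19 Ighm UMIs, and the level was 132 CPM. Labelled WT, 244 of 425 (57.4%) held 883 Ighm UMIs against 141 of Ighd and 246 of Igkc, a ratio of 3.59 (3.11–4.15), and 140 of the 244 had neither partner. Their depth was the greatest of all classes labelled WT named here, with a median of 3660 UMIs, and 7853 in those labelled KO, so shares of nuclei are not compared with other classes.

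The other classes labelled KO that are given here held few UMIs of its partners as well. Myeloid-like nuclei had 325 Ighm, 13 Ighd and 5 Igkc UMIs (65.0 per Igkc UMI, 27.6–202, an interval that overlaps that of adipocyte-like nuclei), and adipose stem and progenitor cell (ASPC)-like nuclei 113, 3 and 7 (16.1). Myocyte-like nuclei had 70 Ighm UMIs in 14 of 53 nuclei, at most 21 in a nucleus, with 0 of Ighd and Igkc, at least 23.3 Ighm per Igkc UMI with the 3 counts that 0 allows (exact lower limit 18.5). By the same rule, the ratio was at least 10.0 in T/NK-like nuclei (exact lower limit 7.64). Endothelial-like nuclei had 25 Ighm, 0 Ighd and 5 Igkc UMIs, and their 5.00 per Igkc UMI (1.88–16.7) overlapped the interval of B-like nuclei. By cluster, Ighm in adipocyte-like nuclei labelled KO was at 105 and 157 CPM, in ASPC-like at 26.6 to 35.4 CPM, and in myocyte-like at 260 CPM. Labelled WT, myeloid-like nuclei gave 1.73, ASPC-like nuclei 1.16 (0.917–1.46) and endothelial-like nuclei 1.00 Ighm per Igkc UMI (74 of each), none of them raised over B-like nuclei by this ratio. Per Ighd UMI they gave 2.54 (2.15–3.01), 2.09 (1.59–2.77) and 2.11 (1.40–3.26), of which the interval of myeloid-like nuclei lay above that of B-like nuclei. Counts per gene do not show where in Ighm the reads lay, and the source of this Ighm RNA was not tested.

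**Figure D4:**
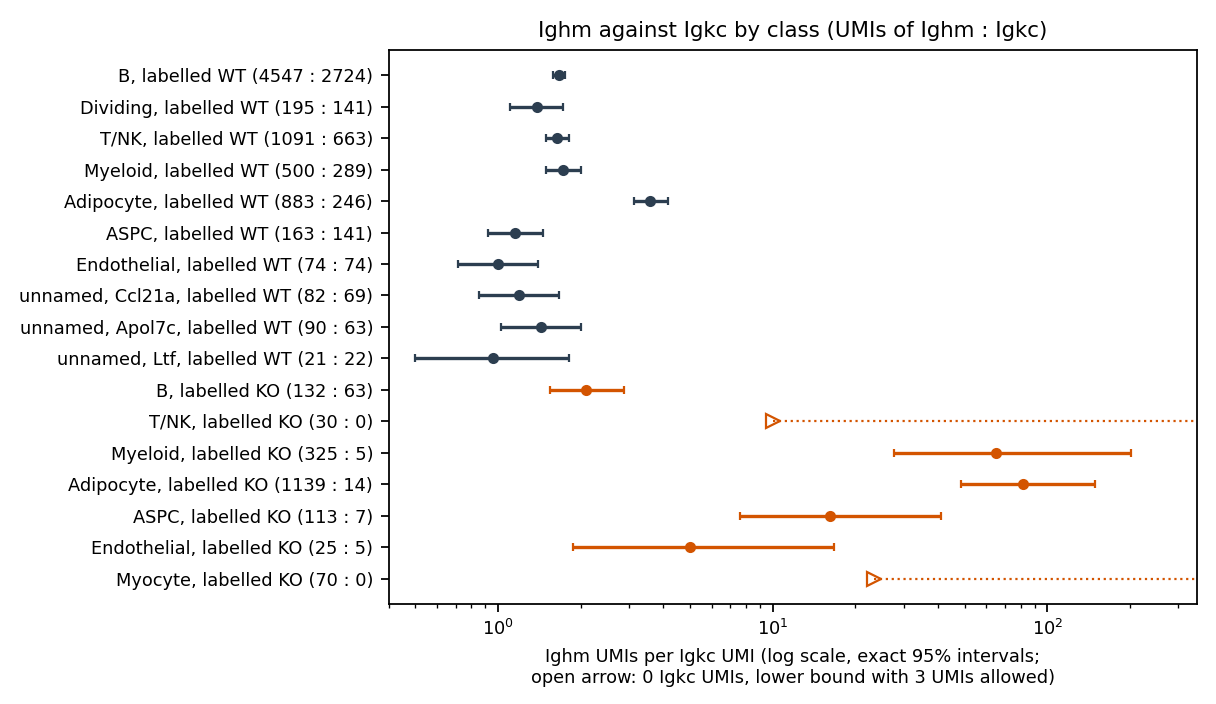
Ighm UMIs per Igkc UMI on a log axis, by class of nuclei with at least 20 Ighm UMIs in each library, with exact 95% intervals, and open arrows for classes with 0 Igkc UMIs. B-like nuclei lie at 1.67 and 2.10, while adipocyte-like nuclei lie at 3.59 labelled WT and 81.4 labelled KO.

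Across 15 sums of class and library with at least 50 nuclei each, the profile of Ighd in log2(CPM + 10) was most like those of Iglc3 (Pearson r = 0.995), Cd79a (0.994), Iglc2 (0.993), Ly6d (0.991) and H2-Ob (0.991), among 14433 genes. Igkc was nearest to Ly6d (0.990), Cd79a (0.983) and Ighd (0.982). Ighm had lower values, with N4bp2l2 (0.951), Gm30211 (0.947), Cd22 (0.942) and Pax5 (0.936), and neither Ighd nor Igkc was among its 5 nearest. These sums share libraries and depth, and the 34 B-like nuclei labelled KO were too few to be among them.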

How the data were processed

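Nuclei of iWAT were profiled with 10x Genomics 3′ v3.1 chemistry. The authors deposited UMI counts per gene and barcode, made with Cell Ranger 6.1.1 per the file headers, on mm10 per the submitters' processing notes, which also name Seurat 4. Barcodes with at least 500 genes and at most 5% mitochondrial UMIs were kept. Doublets were scored with Scrublet in scanpy 1.11.5. Its automatic threshold marked 0 nuclei labelled WT, so the top 4% (146) were removed there, and the 92 marked were removed labelled KO. Each library was clustered alone (Seurat 5.3.0, R 4.3.3, 2000 variable genes, 20 components, resolution 0.5) without 393 immunoglobulin genes. This and the naming rule were chosen after seeing the data, since joint clustering at this resolution put most B-like nuclei labelled KO in a myeloid cluster. At resolution 1.0 it put 32 of the 34 in a B-like cluster.

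A cluster was named where at least 3 markers of a class passed (UMIs in at least 5% of nuclei, 2-fold over the other clusters), 3 more than the next class. The dividing cluster was named by another rule, that all 4 markers of division passed and no class had 3 more. Named genes were the 10 members, fixed lists and the 5 genes of nearest profile. Members and lists were chosen with earlier results of these data known. With 1 library per genotype there is no test. Intervals (95%, scipy 1.17.1) are exact Poisson, Clopper-Pearson or conditional binomial, and a count of 0 is read as allowing 3. Ratios were tested on simulated data. Sequences came from GENCODE transcripts and coordinates from RefSeq. Cell names are rebuilt and may differ from the study's. Alternatives were other filters, clusterings, gates, depths and scalings. Some genes of the fixed lists are not reported here.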

Additional observations from a re-analysis of the deposited data

Results flagged for a closer look

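Barcodes outside the filter, which no comparison uses, also carried the members. The 1351 barcodes labelled WT that failed it held 1847 Ighm and 1109 Igkc UMIs, and the 2056 labelled KO held 527 Ighm and 118 Igkc UMIs, each above the limit of 3 UMIs set for a gene not seen. Of these, 79 Ighm and 63 Igkc UMIs lay in the barcode labelled KO with 8 plasma cell markers. Switched isotypes were few there, with 15 Ighg1, 4 Ighg2b, 2 Ighg2c, 1 Ighg3 and 3 Igha UMIs labelled WT (6.49 CPM of Ighg1 and 1.73 CPM of Ighg2b, against 14.0 and 10.8 CPM over all kept nuclei), and 1 Igha UMI and none of the 4 IgG genes labelled KO.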

How the results depend on the processing

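Of 143 alternative values for 15 results, 118 stayed within the counting interval of the main value and 25 moved. The Iglc2 ratio labelled KO over labelled WT, 0.804 with an interval that includes 1, was 1.06 relative to genes of up to 10000 bases and so crossed 1. The percent of B-like nuclei labelled WT with any switched isotype was 10.8 with at least 1000 genes per nucleus (111 nuclei, 82 of them in the main class), 6.30 when thinned to 1000 UMIs and 2.59 to 500, 1.59 when 2 UMIs counted as detected, and 3.03 with a per-nucleus marker gate (33 nuclei). The percent unswitched labelled WT was 89.2, 87.7 and 97.0 with at least 1000 genes, 2 UMIs and the gate, 87.8 when thinned to 500 UMIs, and 92.5 with both libraries clustered together. Labelled KO it was 70.6 when thinned to 500 UMIs. The percent with both Ighm and Ighd labelled WT was 90.1, 49.0 and 69.7 with at least 1000 genes, 2 UMIs and the gate, and 50.9 when thinned to 500 UMIs, and labelled KO it was 32.4 with 2 UMIs, 37.9 when thinned to 1000 UMIs and 20.6 to 500. The percent of heavy chain UMIs from switched isotypes labelled WT was 4.25 with at least 1000 genes, 2.07 with the gate and 2.56 with dividing B-like nuclei joined. Relative to genes of up to 10000 bases, the ratios labelled KO over labelled WT were 0.697 for Ighm, 0.530 for Ighd and 0.555 for Igkc, and without the nucleus richest in immunoglobulin the Ighm ratio was 0.398. Joint clustering, joined dividing nuclei, gene length scaling and the left-out nucleus were added after seeing the data. The gate found 0 B-like nuclei labelled KO, and joint clustering at resolution 0.5 found 2, so neither gave a value there. No paired analysis was possible because there is 1 library per genotype. Depth limits the rare isotypes labelled KO, where 0 UMIs allow up to 43.0 CPM.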
